A study of Mus musculus with 8 samples.

Results

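Gbp2, Gbp3, Gbp5 and Ifi47 are 4 of the 10970 genes counted in single mouse neutrophils, taken as named members of the guanylate-binding and immunity-related GTPase families. They were followed in 4 groups of cells: neutrophils of peripheral blood (PB) or bone marrow (BM) from mice injected intraperitoneally with PBS or with a low dose of lipopolysaccharide (LPS, 0.5 mg/kg), called here PBS-primed and LPS-primed neutrophils. The mice were 7- to 12-week-old C57BL/6J males, and neutrophils were enriched by negative selection and picked 1 at a time. Titles carry 0 h for PBS and 4 h for LPS, whereas the methods describe a preparation 4 h after either injection, so the time of the PBS cells is not settled by the sources used here. Of 1421 cells, 711 carry the name of 1 of 8 labelled samples, 2 per group, each a plate of its own, with 83 to 92 cells and 3240559 to 8361677 unique molecular identifiers (UMIs, each standing for 1 captured transcript) per sample. The other 710 cells come from a second batch whose names give a group and a plate but no sample, and they are reported per plate beside the samples. Nothing in the labels says that the 2 samples of a group came from separate mice, so the p-values measure the spread between these samples, which may be technical.

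Guanylate-binding proteins (GBPs) are large GTPases that coat bacteria and the vacuoles around them, break or open these membranes, and help bring bacterial LPS to caspase-11, the sensor that the mouse gene Casp4 encodes. Immunity-related GTPases (IRGs), to which Ifi47 (also called Irg47 or Irgd) belongs, are smaller GTPases that act on pathogen-containing vacuoles together with the GBPs. Both families are textbook targets of interferons: factors activated by interferon-gamma bind GAS elements, and a complex that contains STAT2 and IRF9, formed after type I interferon, binds interferon-stimulated response elements (ISREs). LPS reaches the same genes through TLR4 and the interferon it induces.

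In the Gencode M1 annotation of the mm9 genome, the build the authors aligned to, the 3 Gbp genes lie on the plus strand of chromosome 3 within 141109 bases. They follow each other in the order Gbp5 at chr3:142159864-142185308, Gbp3 at chr3:142223016-142236173 and Gbp2 at chr3:142283566-142300972. Ifi47 lies on the plus strand of chromosome 11 at chr11:48890089-48910476, inside the span annotated to the olfactory receptor gene Olfr56 on the same strand (chr11:48792391-48948889). Reads of the shared stretch could be divided between both genes by the authors' counting. The table holds 95 and 15 UMIs of Olfr56 in LPS-primed PB samples 1 and 2, where Ifi47 has 5402 and 7067, and at most 1 in every other sample. How many reads of the shared stretch were dropped or divided was not measured, and the values of Ifi47 are uncertain for that reason.

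The bases before the starts of the coding transcripts are shown because the members rose together and both transcription factor elements named above are short enough to be read by eye. Each window holds the 250 bases before the start of the 5′-most coding transcript in Gencode M1, read from the mm9 genome on the plus strand. Capitals mark the ISRE core, which is GAAA, any 2 bases and GAAA again (TTTC, any 2 bases and TTTC when it lies on the opposite strand), and the GAS core TTCNNNGAA, which reads the same on both strands. Both strands were searched.
Gbp3, chr3:142222766-142223015: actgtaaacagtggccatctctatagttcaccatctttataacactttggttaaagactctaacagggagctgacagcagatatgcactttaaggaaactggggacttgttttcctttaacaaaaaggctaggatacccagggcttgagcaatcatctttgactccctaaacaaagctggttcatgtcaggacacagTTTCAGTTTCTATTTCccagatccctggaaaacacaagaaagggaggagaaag
Gbp5, chr3:142159614-142159863: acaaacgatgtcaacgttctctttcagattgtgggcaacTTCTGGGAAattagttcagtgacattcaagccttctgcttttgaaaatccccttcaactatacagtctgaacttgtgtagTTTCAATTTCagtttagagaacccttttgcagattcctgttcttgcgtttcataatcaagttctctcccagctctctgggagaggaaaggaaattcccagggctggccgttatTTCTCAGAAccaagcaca
Gbp2, 30 bases around its motif, chr3:142283558-142283587: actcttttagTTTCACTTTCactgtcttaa

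The Gbp3 window held 2 ISRE cores that overlap each other, from 53 to 38 bases before the start. Gbp5 held 1 ISRE core 131 to 122 bases before the start and 2 GAS cores. The ISRE cores printed here read on the opposite strand. The Gencode M1 window of Gbp2 held neither motif. RefSeq places the start of Gbp2 61 bases further downstream, and from that start an ISRE core lay 59 to 50 bases upstream, which is the site printed above. That site lies downstream of the Gencode M1 start, and the RefSeq window overlaps Gencode M1 exons of Gbp2. RefSeq windows of Gbp3 held 2 ISRE cores before one start and 0 before a further start, and that of Gbp5 held 1. The letters of the Gbp2 site were taken from the RefSeq window of GRCm38.p6 and matched letter by letter to mm9. Of 22367 Gencode M1 windows of the same length before protein-coding genes, 3.43% held an ISRE core, 6.82% a GAS core and 0.46% both. These shares do not cover RefSeq windows or a search of both annotations. A match describes letters and does not show binding.

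In PB neutrophils all 4 genes rose after LPS (LPS-primed against PBS-primed, edgeR's quasi-likelihood test on UMIs summed per sample, 2 samples against 2, Benjamini-Hochberg adjustment over 8478 genes). In BM neutrophils none of the 4 passed the test. The 4 calls among 4 members stand against 3.47% of all tested genes called higher in PB. The members and the gene lists below were chosen with earlier results of these data known. Counts set beside such shares therefore describe the genes and are no test of them as a set. DESeq2 and limma-voom also called all 4, where they called 15.1% and 3.64% of all genes in either direction, and 16.8% of all genes had an unadjusted p under 0.05 by edgeR. The levels below are CPM, the UMIs of a gene scaled to 1000000 UMIs of the sample, each with the 2 samples of its group.

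Gbp2, a GBP that helps release LPS from bacteria, was at 28.0 and 45.4 CPM in PBS-primed PB samples and at 1558 and 1786 CPM in LPS-primed PB samples. The means were 36.7 ± 12.3 and 1672 ± 161 CPM (SD, n = 2), and the groups did not overlap. The fitted rise was 6.43 ± 0.60 log2 units (SE, adjusted p = 0.000113 by edgeR). On the plates without a sample the same gene was at 138 and 120 CPM in PBS-primed and at 1636 and 1955 CPM in LPS-primed PB cells. Samples and plates thus gave LPS-primed PB values that all lay above all PBS-primed ones.

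Ifi47, the IRG of the set, was at 51.8 and 77.8 CPM in PBS-primed and at 844 and 1201 CPM in LPS-primed PB samples. Its means were 64.8 ± 18.4 and 1022 ± 253 CPM (SD, n = 2). The fitted rise was 4.91 ± 0.55 log2 units (SE, adjusted p = 0.000439 by edgeR). The plates gave 59.6 and 63.0 CPM in PBS-primed and 1245 and 1236 CPM in LPS-primed PB cells, so samples and plates separated alike.

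Gbp3, a further GBP of the chromosome 3 cluster, was at 0.595 and 10.8 CPM in PBS-primed and at 134 and 155 CPM in LPS-primed PB samples. The means were 5.70 ± 7.22 and 144 ± 14.9 CPM (SD, n = 2). Both LPS-primed samples lay above both PBS-primed ones. Its fitted rise of 5.61 ± 1.31 log2 units (SE) had an adjusted p of 0.0394 by edgeR. It was no longer called without PBS-primed PB sample 1 (adjusted p = 0.118 by edgeR), without LPS-primed PB sample 2 (adjusted p = 0.122 by edgeR), or with scaling by library size alone (adjusted p = 0.0905 by edgeR), although the direction was kept. The plates were at 21.4 and 4.69 CPM after PBS and at 99.0 and 170 CPM after LPS.

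Gbp5, which promotes assembly of the NLRP3 inflammasome, had 2 UMIs and 1 UMI in the PBS-primed and 728 and 350 UMIs in the LPS-primed PB samples. In CPM these were 0.397 and 0.309 against 114 and 59.5. The ratio of the group levels in CPM was 242 (95% interval 82.7 to 1176, exact, counting error only), and the adjusted p was 0.0107 by edgeR. The call was lost without PBS-primed PB sample 1 (adjusted p = 0.0933 by edgeR), PBS-primed PB sample 2 (0.106) or LPS-primed PB sample 1 (0.117). On the plates Gbp5 had 0 and 1 UMI after PBS and 513 and 864 UMIs after LPS.

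The size of these changes depends on the scaling. With TMM, which scales samples by their common genes, the median of all tested genes between LPS-primed and PBS-primed PB samples was -0.11 on the log2 scale, and with library size alone it was -1.02. Gbp2, Gbp5 and Ifi47 passed under both, and Gbp3 with TMM only. The split of all calls moved with it: in PB 294 of 334 genes called after LPS were higher with TMM and 140 of 408 with library size alone. In BM these were 2 of 6 and 6 of 10, for PB against BM after LPS 277 of 316 and 157 of 263, for PB against BM after PBS 100 of 221 and 213 of 297, and for the difference of LPS effects 123 of 127 and 45 of 64.

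**Figure D1:**
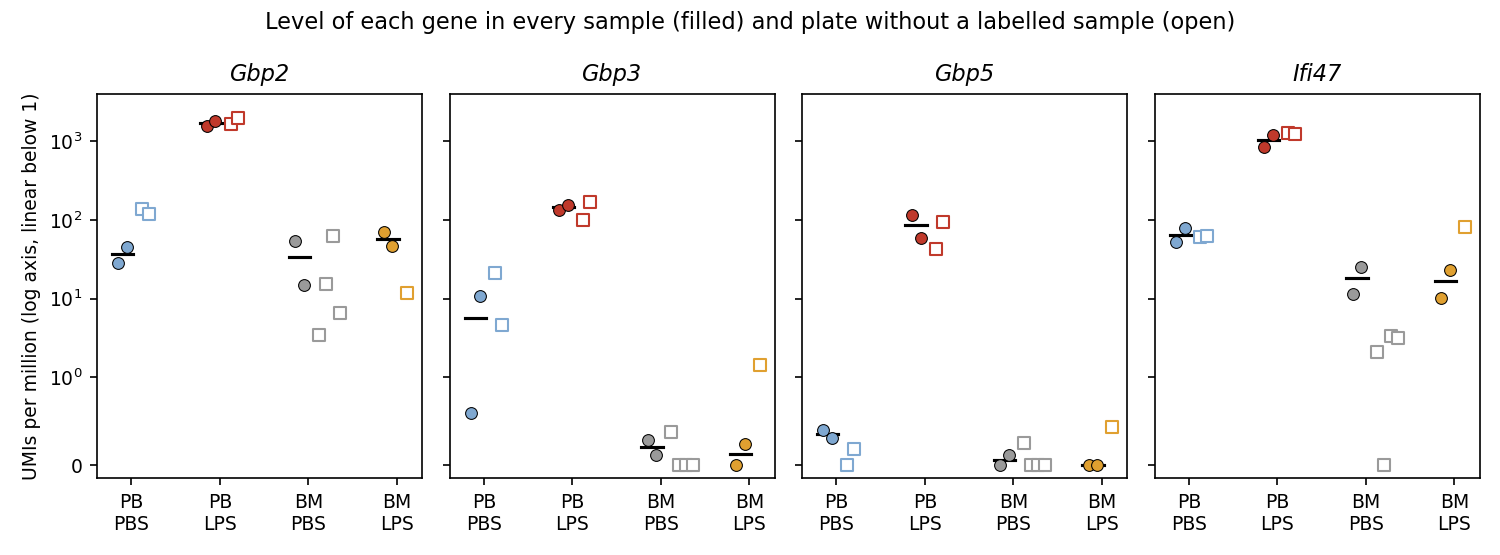
CPM of the 4 genes in each group on a logarithmic axis (linear below 1). Filled circles are the 2 labelled samples of a group with their mean as a black bar, and open squares are the plates without a labelled sample. For Gbp2, all LPS-primed PB points lie between 1558 and 1955 CPM and all other points at or below 138 CPM.

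In BM, Gbp2 and Ifi47 differed between the same injections by less than the spread of the samples. Gbp2 was at 53.2 and 14.9 CPM in PBS-primed and at 69.2 and 46.4 CPM in LPS-primed BM samples, which overlap (0.59 ± 0.48 log2 units, SE, adjusted p = 0.852 by edgeR). Ifi47 was at 11.5 and 25.2 CPM in PBS-primed and at 10.3 and 23.3 CPM in LPS-primed BM samples, which overlap as well (-0.32 ± 0.48 log2 units, SE, adjusted p = 1 by edgeR). Gbp3 had 3 UMIs in the PBS-primed and 2 in the LPS-primed BM samples, and Gbp5 had 1 and 0, so neither could be compared at this depth. The count of members called was 0 by edgeR, DESeq2 and limma-voom, and 0 had an unadjusted p under 0.05 by edgeR. The background in BM was small as well, with 0.0236% of all tested genes called higher by edgeR, 2.8% called in either direction by DESeq2, 0.118% by limma-voom and 8.07% at the unadjusted p.

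On the BM plates without a sample, 3 of the 4 genes were higher on the 1 LPS-primed plate than on every PBS-primed plate or part plate. Gbp3 was at 1.43 CPM (13 UMIs) against 0 to 0.375 CPM, and Gbp5 at 0.439 CPM (4 UMIs) against 0 to 0.250 CPM. Ifi47 was at 80.1 CPM on the LPS-primed BM plate against 0 to 3.33 CPM on the 4 PBS-primed plates or part plates, but 4 of its 88 cells held nearly all of the 730 UMIs. The highest single cell held 226. Gbp2 on that plate was at 11.7 CPM, within the 3.50 to 62.1 CPM of the PBS-primed BM plates.

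The difference between both LPS effects was tested as its own contrast. It was 5.85 on the log2 scale for Gbp2 (standard error 0.72, adjusted p = 0.00157 by edgeR) and 5.22 for Ifi47 (standard error 0.71, adjusted p = 0.00307 by edgeR). Gbp3 (adjusted p = 0.252 by edgeR) and Gbp5 (adjusted p = 0.148 by edgeR) did not pass. Thus 2 of 4 members were called, where 1.45% of all tested genes were called higher. Limma-voom called none of the 4, with an adjusted p of 0.0702 for Gbp2 and 0.199 for Ifi47, and 1% of all genes. DESeq2 called 4, and 6.82% of all genes. Over both batches with a batch term Ifi47 was not called (3.74 log2 units, adjusted p = 0.0590 by edgeR), and Gbp2 and Gbp5 were (adjusted p of 0.000346 and 0.0309 by edgeR).

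After LPS, PB neutrophils held more of all 4 transcripts than BM neutrophils, 4 calls against a background of 3.27% called higher. The log2 difference was 5.44 for Gbp2 (standard error 0.57, adjusted p = 0.00041 by edgeR) and 6.51 for Ifi47 (standard error 0.60, adjusted p = 0.000158 by edgeR). Gbp3 rested on 1765 UMIs in PB and 2 in BM, a ratio of the group levels in CPM of 1148 with a wide interval of 317 to 9488 (95%, exact, counting error only), and had an adjusted p of 0.00457 by edgeR. Gbp5 had 1078 UMIs in PB and 0 in BM and was at least 467-fold higher in PB, taking 3 counts over the BM group as the floor (adjusted p = 0.00381 by edgeR). These 4 calls held under all 16 alternatives computed, including each sample left out in turn, DESeq2 (13% of all genes called in either direction) and limma-voom (6.32%), and 17.6% of all genes had an unadjusted p under 0.05 by edgeR.

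After PBS, 0 of the 4 differed between PB and BM by edgeR, where 1.18% of all tested genes were called higher in PB. Gbp3 and Ifi47 had an unadjusted p under 0.05 by edgeR, DESeq2 called both, and limma-voom called neither. Over all genes 18.5% had such a p, DESeq2 called 12.8% and limma-voom 4.36%. Gbp3 was at 0.595 and 10.8 CPM in PB and at 0.287 and 0.120 CPM in BM (adjusted p = 0.183 by edgeR), on 38 UMIs against 3. In PBS-primed PB sample 2, 1 cell held 28 of the 35 Gbp3 UMIs, so the higher PB level rests mostly on that cell. Ifi47 was higher in both PB samples than in either BM sample (1.28 ± 0.48 log2 units, SE, adjusted p = 0.215 by edgeR). For Gbp2 the samples overlapped, at 28.0 and 45.4 CPM in PB and 53.2 and 14.9 CPM in BM.

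The order of the 4 groups therefore shared its top in all genes and differed below it. LPS-primed PB neutrophils stood first for each gene without overlap. For Gbp2 the PBS-primed BM samples (14.9 and 53.2 CPM) overlapped both other groups. PBS-primed PB (28.0 and 45.4 CPM) and LPS-primed BM (46.4 and 69.2 CPM) lay next to each other without overlap, which was not tested. These BM levels came from few cells. In LPS-primed BM samples 1 and 2 the 5 highest cells held 97.8% and 96.3% of the Gbp2 UMIs. In PBS-primed BM sample 1, 1 cell held 208 of 371. Without thinning, 15.4% and 19.6% of LPS-primed BM cells held a Gbp2 UMI, against 52.2% and 31.4% in PBS-primed PB. For Ifi47 PBS-primed PB samples came next, at 51.8 and 77.8 CPM, and the 2 BM groups overlapped between 10.3 and 25.2 CPM. In PBS-primed PB sample 2 this second place rests on cells low in neutrophil markers. Without them that sample was at 9.11 CPM, below the BM samples, and sample 1 was at 37.9 CPM, still above them. On the plates the same step left PBS-primed PB at 24.2 and 42.2 CPM. PBS-primed BM plates were then at 0 to 3.33 CPM and the LPS-primed BM plate at 80.1 CPM. For Gbp3 and Gbp5 the BM samples held 0 to 2 UMIs each.

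Single cells showed how these sums were made up. In LPS-primed PB samples 1 and 2, 63 of 91 and 58 of 86 cells held at least 10 UMIs of Gbp2, which is 69.2% and 67.4%. For Ifi47 the shares were 54.9% and 47.7%. For Gbp3 they were 16.5% and 11.6%, and for Gbp5 8.79% and 8.14%. In no sample or plate of the other 3 groups did the share pass 6.67% for any of the 4 genes, and no cell outside the LPS-primed PB group held 10 UMIs of Gbp5. LPS-primed PB cells held more UMIs on the plates without a sample (medians of 117374 and 87908 against 50838 and 51448 in the samples). There 95.8% and 96.7% of cells had at least 10 UMIs of Gbp2, and 91.6% and 79.1% of Ifi47. With every cell thinned to 5000 UMIs, 96.8% and 92.3% of these plate cells held a Gbp2 UMI, and 89.5% and 74.7% one of Ifi47. For both genes these shares still lay above those of the samples at that depth, given below. The source of this difference was not tested.

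**Figure D2:**
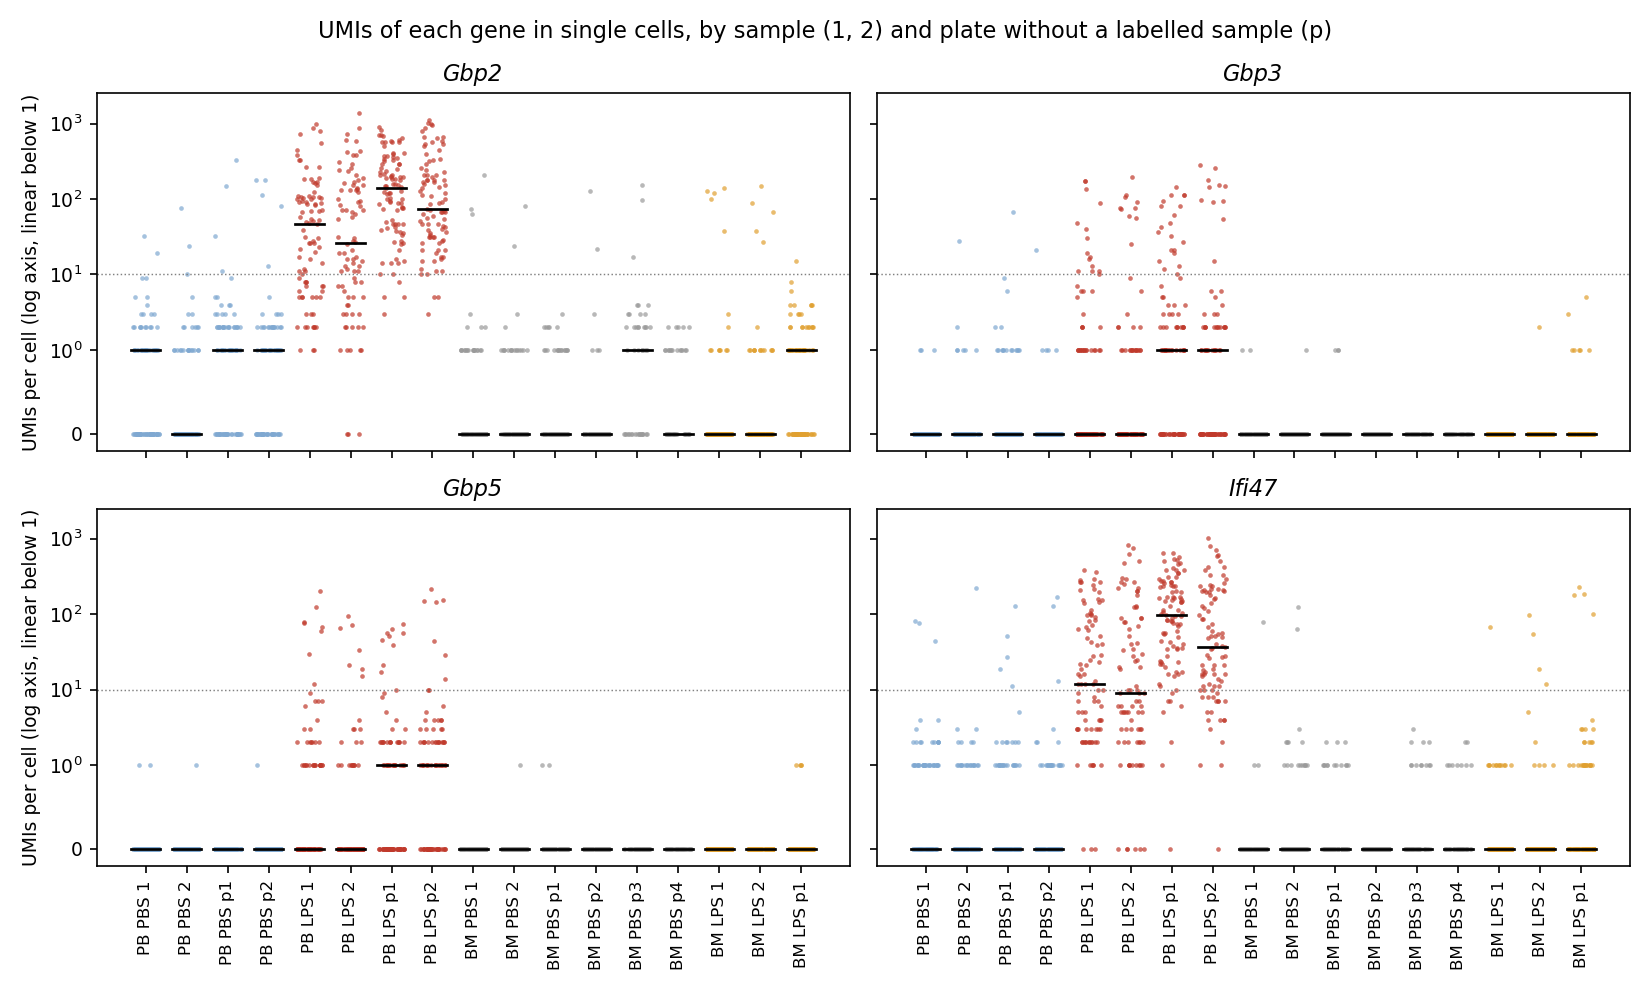
UMIs of the 4 genes in every cell, on a logarithmic axis that is linear below 1. Each column is a labelled sample (1, 2) or a plate or part plate without a labelled sample (p), black bars are medians over cells, and the dotted line marks 10 UMIs. Gbp2 and Ifi47 are raised across most LPS-primed PB cells, with medians of 46 and 26 UMIs for Gbp2 in samples 1 and 2, while Gbp3 and Gbp5 have medians of 0 UMIs there and a minority of cells above the line.

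At a matched depth of 5000 UMIs per cell, 79.1% (95% interval 69.3 to 86.9, exact Clopper-Pearson) and 76.7% (66.4 to 85.2) of LPS-primed PB cells held a Gbp2 UMI. PBS-primed PB cells gave 11.1% and 9.30%, and BM cells 3.26% to 7.23% in the 4 BM samples. For Ifi47 the thinned shares were 62.6% and 66.3% in LPS-primed PB, 9 of 90 and 5 of 86 cells in PBS-primed PB, and 1.10% to 3.26% in BM. For Gbp3 they were 20.9% and 15.1% in LPS-primed PB, with at most 2 cells in any other sample. For Gbp5 they were 17.6% and 10.5% in LPS-primed PB and 0 elsewhere, where 0 of 90 cells in PBS-primed PB sample 1 allows a share of up to 3.33%, taking 3 cells of the total as the limit (the exact upper bound is 4.02%). Without thinning, 98.3% of LPS-primed PB cells held a Gbp2 UMI, 94.9% one of Ifi47, 41.7% one of Gbp3 and 36.5% one of Gbp5 (means of both samples). These intervals and limits cover counting error only.

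In the labelled samples Gbp3 and Gbp5 were carried by few cells even after LPS. In LPS-primed PB sample 1 the 5 highest cells held 72.4% of the Gbp3 and 75.3% of the Gbp5 UMIs, against 39.4% for Gbp2 and 29.3% for Ifi47. In sample 2 the shares were 63.6%, 82.0%, 40.0% and 44.9% in the same order. Over all LPS-primed PB cells, 34 of 34 cells with at least 10 Gbp5 UMIs and 55 of 56 with at least 10 Gbp3 UMIs also had at least 10 of Gbp2, where 300 of 363 cells did so. Of the 34 Gbp5-high cells, 15 were also Gbp3-high. Within samples and plates the rank correlation over cells was 0.33 to 0.42 between Gbp2 and Ifi47 and 0.28 to 0.41 between Gbp2 and Gbp3. It was 0.19 to 0.30 between Gbp2 and Gbp5 and 0.15 to 0.29 between Gbp3 and Ifi47. For Gbp3 with Gbp5 it was 0.13 to 0.27, and for Gbp5 with Ifi47 0.04 to 0.27. Each value is over 86 to 95 cells that share a library and vary in depth.

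The authors' clusters divided the LPS-primed PB cells of the labelled samples, 1 and 9 cells in cluster 0, 48 and 35 in cluster 1 and 42 and 42 in cluster 2. Cluster 0 held Gbp2 at 33.2 and 368 CPM. Gbp2 was at 923 and 532 CPM in cluster 1 and at 2069 and 2386 CPM in cluster 2, and Gbp3 at 8.01 and 52.8 against 231 and 204 CPM. Gbp5 was at 34.6 and 17.4 against 176 and 80.2 CPM, and Ifi47 at 602 and 122 against 1041 and 1711 CPM. Of the 186 cells on the plates without a sample, 185 were in cluster 2. The clusters were built from the variable genes of these cells, and whether the 4 genes were among them is not given in the sources used here, so the values are a description without a test.

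Outside the LPS-primed PB group, single cells could set a sample's level. In PBS-primed PB sample 2, 1 cell held 221 of 252 Ifi47 UMIs, and that cell had 21456 CPM of the T or NK cell markers and 8753 CPM of the 13 neutrophil markers. In PBS-primed PB sample 1, 1 cell with 77 of 261 Ifi47 UMIs had 23350 CPM of T or NK cell markers. In the labelled samples neutrophil markers summed to 144697 to 153040 CPM in PBS-primed PB, 266584 to 293904 in LPS-primed PB and 331677 to 390392 in BM. All 13 of the list were in the table, but Mpo and Elane were both at 0 in the PB and PBS-primed BM samples. In LPS-primed BM, Mpo was at 0 in sample 1 and Elane in sample 2. Of the T or NK cell list, 9 of 12 genes were in the table, and they summed to 670 to 882 CPM in PBS-primed PB against 2.03 to 42.6 CPM in the other groups of labelled samples. The plates without a sample held 1225 and 292 CPM in PBS-primed PB and 2.35 to 44.5 CPM elsewhere. B cell markers (5 of 7) summed to 80.5 to 108 CPM in PBS-primed PB and at most 1.32 CPM elsewhere in the labelled samples. On the plates they were at 202 and 124 CPM in PBS-primed PB, at 0.0832 and 96.3 CPM in LPS-primed PB and at most 2.02 CPM in BM.

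In the labelled samples hepatocyte markers (6 of 6) were at 1519 to 2323 CPM in PBS-primed PB, 852 to 884 CPM in LPS-primed PB and at most 15.9 CPM in BM. On the plates without a sample they were at 0.107 to 1.08 CPM in PB, at 94.2 CPM on 1 PBS-primed BM plate and at most 1.37 CPM on the other BM plates. Platelet markers (4 of 4) were at 288 to 423 CPM, 73.4 to 124 CPM and at most 0.386 CPM in the same order of labelled samples, and on the plates at 2718 and 1139 CPM, 1.41 and 49.6 CPM and at most 3.18 CPM. Monocyte or macrophage markers (7 of 10) spanned 235 to 599 CPM in PBS-primed PB and 854 to 1052 CPM in the other groups, and on the plates 626 and 872 CPM and 639 to 1468 CPM. The erythroid gene Alas2 (1 of 7) reached 26.8 CPM in PB and was at 0 in BM in the labelled samples, with at most 0.198 CPM on the plates, and the dendritic cell gene Siglech (1 of 4) reached 0.120 CPM. The authors' spike-in ratio per cell, whose denominator is not given in the sources used here, had sample medians of 0.633 and 0.664 in PBS-primed PB, 0.520 and 0.498 in LPS-primed PB and 0.416 to 0.483 in BM. The part of these markers and of this ratio in the levels of the 4 genes was not tested beyond the following measurement.

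Cells with less than 50000 CPM of the neutrophil markers numbered 6 and 6 in the PBS-primed PB samples, 0 in LPS-primed PB and 1 in all BM samples. Without them Ifi47 fell from 51.8 and 77.8 to 37.9 and 9.11 CPM in PBS-primed PB. Its LPS effect in PB was then 6.26 on the log2 scale (standard error 0.75, adjusted p = 0.000587 by edgeR) and its difference between PBS-primed PB and BM was -0.10. For Gbp2 the same step gave 25.2 and 48.6 CPM in PBS-primed PB and an LPS effect of 6.32 (standard error 0.62, adjusted p = 0.000156 by edgeR). The 10 PBS-primed PB cells, 9 PBS-primed BM cells and 10 LPS-primed BM cells with at least 20 Gbp2 UMIs were all at or above the marker limit, whereas 5 of 9 such Ifi47 cells in PBS-primed PB were below it.

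**Figure D3:**
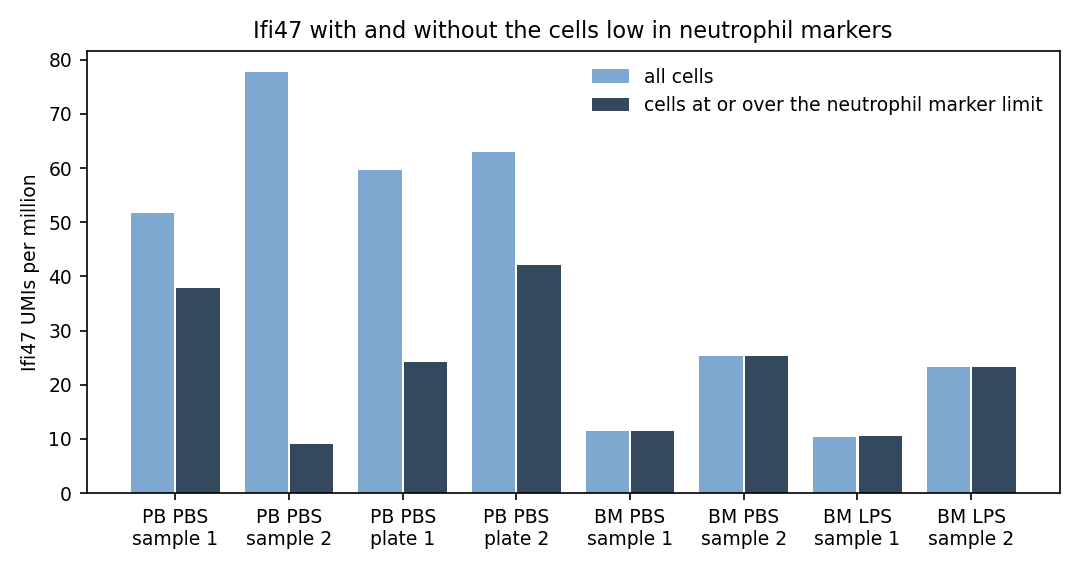
Ifi47 in CPM with all cells (light bars) and without cells under 50000 CPM of neutrophil markers (dark bars), for the PBS-primed PB samples and plates and for the BM samples. In PBS-primed PB sample 2 the bar drops from 77.8 to 9.11 CPM, and in the BM samples the paired bars are nearly equal.

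The wider family was followed with a list of 36 GBP and IRG genes, of which 21 were in the table and 14 could be tested. After LPS, 7 of the 14 rose in PB and 0 fell, where 3.47% of all tested genes were called higher. Beside the 4 members these were Gbp7, another GBP, Irgm1, an IRG that restrains and steers the other IRGs, and Igtp (Irgm3), a further regulatory IRG. The median log2 fold change of the 14 was 3.05 and that of the 10 others 2.40, beside -0.11 for all tested genes. Irgm1 was at 47.2 and 84.2 CPM in PBS-primed and 405 and 561 CPM in LPS-primed PB samples (3.81 ± 0.48 log2 units, SE, adjusted p = 0.00105 by edgeR). Gbp7 was at 169 and 74.1 against 608 and 680 CPM (3.31 ± 0.73 log2 units, SE, adjusted p = 0.0310 by edgeR). Igtp was at 97.4 and 119 against 227 and 333 CPM (2.30 ± 0.44 log2 units, SE, adjusted p = 0.0137 by edgeR).

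In BM 0 of the 14 passed by edgeR, DESeq2 or limma-voom, and 2 had an unadjusted p under 0.05 by edgeR. Over all tested genes edgeR called 0.0236% higher, DESeq2 2.8% and limma-voom 0.118% in either direction, and 8.07% had such a p. The median was -0.13 beside 0 for all tested genes. It was -0.25 without Gbp4, Gbp5 and Iigp1, which had 0 UMIs in at least 1 BM group. Gbp3, with 3 and 2 UMIs, was kept. For the 10 genes beside the members the median was 0.09 without Gbp4 and Iigp1. Between LPS-primed PB and BM neutrophils 6 of the 14 were higher in PB, beside 3.27% of all tested genes. They were the 4 members with Irgm1 (log2 difference 3.96) and Igtp (3.35). The median was 5.47, or 4.37 with 3 genes at 0 in BM set to their bound, beside -0.07 for all tested genes. The difference of both LPS effects was called for Gbp2 and Ifi47 and for no other gene of the list, beside 1.45% of all tested genes called higher. Between PBS-primed PB and BM neutrophils 0 of 14 passed by edgeR, 8 had an unadjusted p under 0.05, DESeq2 called 5 and limma-voom 1, and the median was 1.52 beside 0.15 for all tested genes. The shares over all genes given above for that comparison apply here.

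**Figure D4:**
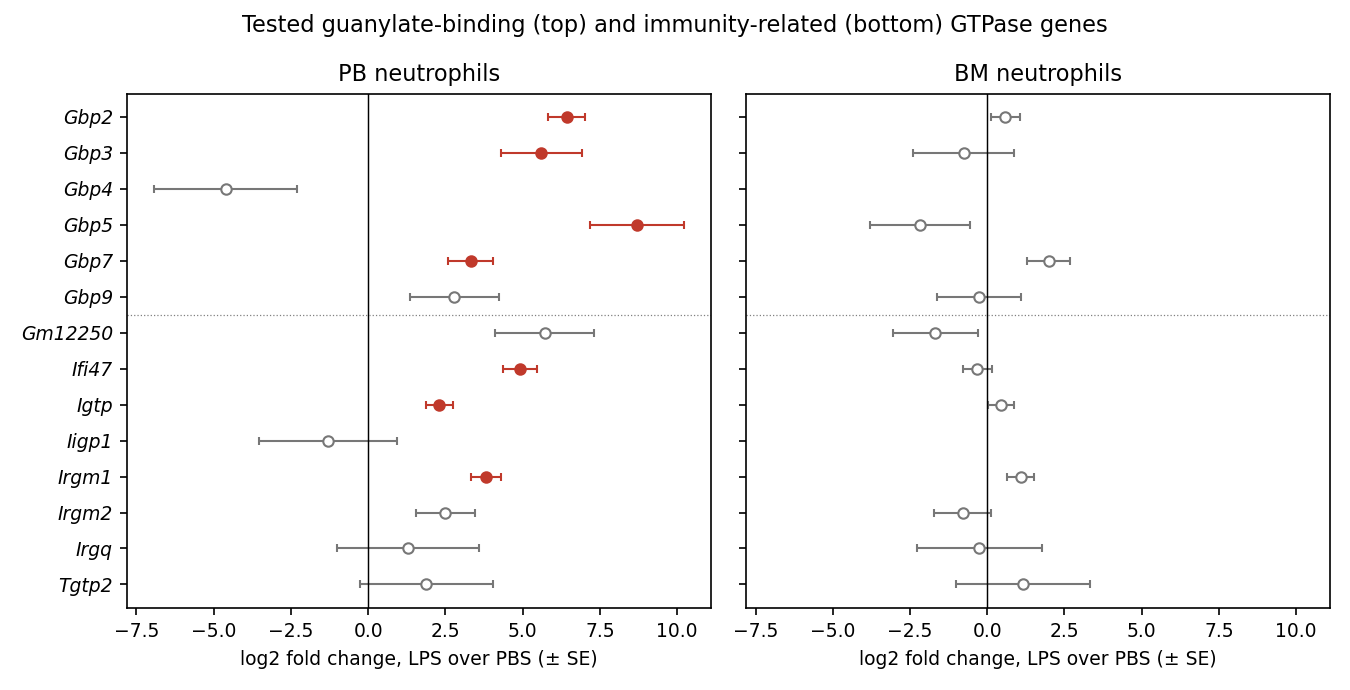
Log2 fold change of LPS-primed over PBS-primed samples (points) with standard errors (bars) for the 14 tested GBP (above the dotted line) and IRG genes, in PB and in BM. Filled red points passed the adjusted threshold of 0.05, 7 in PB and 0 in BM. Gbp4 and Iigp1 have no point in BM, where their samples held 0 UMIs.

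Interferon receptors, kinases and factors known to act on these families, with the regulators Socs1 and Socs3, were read from a list of 15, all tested. In PB 3 rose after LPS and 0 fell, beside 3.47% of all tested genes called higher: Stat2 and Irf9, which encode parts of the complex that binds ISREs, and Irf7, which amplifies type I interferon. Stat2 rose by 4.04 ± 0.54 log2 units (SE, adjusted p = 0.00137 by edgeR), Irf7 by 3.35 (adjusted p = 0.000784 by edgeR) and Irf9 by 2.31 (adjusted p = 0.0278 by edgeR). The median of the list was 0.94 beside -0.11 for all genes. In BM 0 of the 15 passed by edgeR and limma-voom, DESeq2 called 3, and 3 had an unadjusted p under 0.05 by edgeR (over all genes 2.8% by DESeq2 and 8.07% at the unadjusted p). Between LPS-primed PB and BM neutrophils 5 were higher in PB, beside 3.27% of all tested genes. Among them were Stat2 (log2 difference 3.50), Irf1 (2.13), Irf7 (3.90) and Socs3 (3.14). Between the PBS-primed groups Irf7 (2.12) and Socs3 (3.52) were higher in PB, beside 1.18% of all tested genes. For the difference of both LPS effects 0 of 15 passed by edgeR or limma-voom, DESeq2 called 1, and 7 had an unadjusted p under 0.05 by edgeR (over all genes 6.82% by DESeq2 and 13.4% at the unadjusted p).

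Another list held 16 genes of LPS sensing and the inflammasome, where GBPs act, 14 of them tested. In PB 3 rose after LPS and 0 fell, again beside 3.47% of all tested genes: Cd14, the LPS co-receptor (4.51 ± 0.71 log2 units, SE, adjusted p = 0.00423 by edgeR), Casp4 (2.95, adjusted p = 0.0230 by edgeR), and Casp1, the protease that matures interleukin-1β (2.48, adjusted p = 0.0118 by edgeR). The median of the list was 0.69 beside -0.11 for all tested genes. In BM 0 of 14 passed by edgeR and limma-voom, DESeq2 called 3, and 5 had an unadjusted p under 0.05 by edgeR, with the same shares over all genes as for the interferon list. Between LPS-primed PB and BM neutrophils 5 were higher in PB, beside 3.27% of all tested genes. These were Cd14 (log2 difference 4.68), Il1b (3.60), Ninj1 (3.18), Casp1 (2.13) and Myd88 (1.38). Between the PBS-primed groups Il1b (3.53) and Myd88 (1.98) were higher in PB, beside 1.18% of all tested genes. For the difference of both LPS effects 0 of 14 passed by edgeR or limma-voom, DESeq2 called 3, and 4 had an unadjusted p under 0.05 by edgeR, with the same shares over all genes again.

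Genes with the most similar pattern were found over the 8 samples as those with the smallest root mean square difference between centred log2(CPM + 1) profiles among 8478 tested genes. For Gbp2 these were Nos2 (0.52), Lacc1 (0.69) and Fcgr1 (0.75). For Gbp3 they were Ikbke (0.61), Ifi47 (0.84) and Ccrl2 (0.88), and for Gbp5 Smpdl3b (0.28), Lacc1 (0.44) and Filip1l (0.45). For Ifi47 they were Oasl1 (0.45), Isg15 (0.72) and Il1a (0.78). Many of these genes were near 0 outside LPS-primed PB, where the 1 added to the CPM shapes the match. Nos2 was at 42.5 and 47.9 CPM in LPS-primed PB and at most 2.45 CPM elsewhere. Smpdl3b was at 77.1 and 74.3 CPM there and at most 0.309 CPM elsewhere. Oasl1 and Isg15 were at 11.1 and 21.6 CPM or more in every sample. Shared regulation was not tested. Among the members themselves Gbp5 was the 10th nearest gene to Gbp2, at 0.83, and Ifi47 the 58th, at 1.25.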

How the data were processed

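The 4 genes and all gene lists were chosen with earlier results of these data known. Single neutrophils were sequenced by SCRB-seq. Per the labels and the methods, the authors trimmed reads with Cutadapt 1.15, aligned them to mm9 with STAR 2.6.0a, removed duplicates by UMI and counted reads per gene and cell with HTSeq 0.11.2, and the deposited values are UMI counts without normalization. The gene annotation was not given in the sources used here. The authors' annotation of cells adds batch, plate, cluster and a spike-in ratio per cell, a deposited fraction whose denominator is not given in the sources used here and which entered no test. Duplicates of a read were thus removed before deposit, and reads shared by overlapping genes can be lost or divided.

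UMIs were summed per labelled sample. Genes seen in at least 10 cells (9919) were filtered with filterByExpr to 8478 and tested with edgeR 4.0.16 (TMM, glmQLFit, glmQLFTest, 4 groups and 8 samples in 1 model, two-sided, Benjamini-Hochberg, threshold 0.05) in R 4.3.3. Standard errors were derived from the fold change and its F statistic. The test was tried on simulated data first. Totals were 3240559 to 8361677 UMIs per sample. Alternatives were DESeq2 1.42.0, limma-voom (limma 3.58.1), library size alone, no filter on low counts, each sample left out, a replicate block, thinned cells, and both batches with a batch term, where each batch 6 group is 1 pooled sum. Shares of genes called by DESeq2 are of the genes it gave an adjusted p. Leaving out cells under 50000 CPM of neutrophil markers was added after seeing the data.

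The members are described in full, list genes past the threshold are named (up to 10 per comparison), and the 3 genes nearest each member are given. Cells were thinned to 5000 UMIs for shares, with 0 cells left out in the labelled samples. Wells share barcodes between plates by design (68 well names occur in all 8 samples), and doublets were not called because cells were picked singly. Sequences come from the mm9 genome with Gencode M1 and from RefSeq windows, and proteins were not used here. Some items of the lists and sequences are not reported here.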

Additional observations from a re-analysis of the deposited data

Results flagged for a closer look

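The LPS effect differed between PB and BM for Gbp2, by 5.85 on the log2 scale, and for Ifi47, by 5.22, by the edgeR contrast of both effects (adjusted p of 0.00157 and 0.00307). Limma-voom called neither, and over both batches Ifi47 was not called (adjusted p = 0.0590 by edgeR).

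The plates of batch 6 have no labelled sample and entered no main test. In their LPS-primed PB cells the lowest plate still lay above every PBS-primed PB plate, at 1636 CPM for Gbp2, 99.0 CPM for Gbp3, 42.7 CPM for Gbp5 and 1236 CPM for Ifi47. In LPS-primed BM cells of that batch, Ifi47 was at 80.1 CPM, Gbp3 at 1.43 CPM (13 UMIs) and Gbp5 at 0.439 CPM (4 UMIs), each above the PBS-primed BM plates. This group has 1 plate, and 4 of its 88 cells carried most Ifi47 UMIs. The batch, the plate and the animals behind it cannot be told apart.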

How the results depend on the processing

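With 2 samples per group, 1 sample can decide a call. Of 320 values of single members under an alternative, 290 kept their direction and side of the threshold. Members called for LPS in PB numbered 2 to 4 with a sample left out (2 without PBS-primed PB sample 1), against 4, and list genes 3 to 8, against 7. List genes called there were 4 with library size alone. In BM the counts stayed at 0 in every alternative. For PB against BM after LPS, members stayed at 4, and list genes were 6 to 9 with a sample left out and 11 by DESeq2, against 6. For PB against BM after PBS, against 0, DESeq2 called 2 members (5 list genes), the replicate block 1 (1), both batches with a batch term 1 (3), library size alone 0 (1) and limma-voom 0 (1), and a sample left out 0 (0 to 1). For the difference of LPS effects, against 2, DESeq2 called 4 members (6 list genes) and limma-voom 0 (0), and a sample left out 2 (2 to 3). Over both batches Ifi47 lost that call (adjusted p = 0.0590 by edgeR) and Gbp5 gained one (0.0309).

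Over all genes, library size alone called 10 genes for LPS in BM, against 6, and 64 for the difference of LPS effects, against 127. Directions that turned belonged to values that were not called. For LPS in BM, the log2 change of Gbp2 ranged from -0.043 (without PBS-primed BM sample 2) to 1.73, of Gbp3 from -3.50 to 0.093 (without LPS-primed BM sample 1) and of Ifi47 from -1.04 to 0.40 with a sample left out, it was 0.60 for Gbp3 and 0.41 for Ifi47 in thinned cells, and 1.505 for Gbp3, 0.91 for Gbp5 and 1.29 for Ifi47 over both batches. For PB against BM after PBS, Gbp2 ranged from -1.04 to 0.74 with a sample left out and was 0.11 with library size alone, 0.13 in thinned cells and 0.71 over both batches, and Ifi47 was -0.10 without cells low in neutrophil markers. The cause was not tested.

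Shares of LPS-primed PB cells with a UMI were 77.9% for Gbp2, 18.0% for Gbp3, 14.0% for Gbp5 and 64.5% for Ifi47 at 5000 UMIs per cell. They were 98.3%, 41.7%, 36.5% and 94.9% unthinned, and at 10000 UMIs 90.4% for Gbp2, 22.3% for Gbp3 and 80.1% for Ifi47. Replicate numbers share no source in the labels, and the main test left the samples unpaired. Deviations of same-numbered samples correlated at -0.016 to 0.004. Counting noise also lowers such correlations, so they cannot tell whether same-numbered samples share an animal. The replicate block changed 1 member call, Ifi47 for PB against BM after PBS (adjusted p = 0.0338 by edgeR).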

Other observations

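Gbp4 and Gm12250 were chosen after their values were seen, and neither passed the test of LPS-primed against PBS-primed PB samples by edgeR (adjusted p of 0.355 and 0.0843). Gbp4, another GBP, was at 38.1 and 62.3 CPM in PBS-primed and at 2.03 and 0.170 CPM in LPS-primed PB samples. A single cell in each PBS-primed sample held 187 of 192 and 194 of 202 of its UMIs, and the PBS-primed PB plates of the other batch held 0. On the LPS-primed PB plates of that batch it was at 9.40 and 33.2 CPM, with 44 of 91 cells positive on the second.

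Gm12250, an IRG gene, was at 12.3 and 0.926 CPM in PBS-primed and at 143 and 236 CPM in LPS-primed PB samples. It was detected in 52 of 91 and 55 of 86 LPS-primed PB cells. On the plates of the other batch it was at 14.9 and 15.4 CPM after PBS and at 168 and 366 CPM after LPS.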
